A study of Mus musculus and Homo sapiens with 41 samples.

Results

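The erythroid and megakaryocyte lineage genes described here are 35 genes matched by symbol in 2 mouse RNA-seq tables, of 53756 genes listed for granulocyte-monocyte progenitors (GMPs) and 13238 listed for the 416b cell line. They comprise 18 erythroid genes, 11 megakaryocyte genes and 6 transcription factors or cofactors used by both lineages. All 35 were listed in GMPs and passed the filter on low values, and 28 were listed in 416b cells.

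Red cells and megakaryocytes arise from a common progenitor that is separate from the one giving neutrophils and monocytes. Gata1, with its cofactor Zfpm1 (Fog1) and with Tal1, Lmo2, Gfi1b and Nfe2, serves in both lineages. Klf1 and the erythropoietin receptor Epor direct red cell formation, which ends in cells filled with globin and heme and held in shape by a spectrin and ankyrin skeleton. Fli1 favours the megakaryocyte fate, whose products are platelet glycoproteins, von Willebrand factor and the chemokines Pf4 and Ppbp stored in platelet granules. GMPs lie outside both lineages and go on to form granulocytes and monocytes.

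GMPs had been sorted as lineage-negative Cd45+ c-Kit+ Sca-1- Cd34+ FcγR+ bone marrow cells of C57BL/6 background. They came from lethally irradiated Cd45-1 hosts reconstituted with either WT marrow or marrow homozygous for luxoid (Zbtb16lu/lu), a mutation of Zbtb16, the gene encoding the transcription factor PLZF. WT and Zbtb16lu/lu GMPs therefore share irradiation and transplantation. The lineage depletion included Ter-119, an antigen of maturing red cells, and red cells had been lysed. The GMP table holds 2 libraries per genotype, whose names end in what reads as a date. The libraries of each genotype that share a date are called WT B and Zbtb16lu/lu B here, and the others, each with a date of its own, WT A and Zbtb16lu/lu A. Both libraries of a genotype stand under the same deposited sample, and the number of independent RNA extractions given in the study's methods matches neither the libraries per genotype nor those of the whole table, so how extractions map to libraries is not known here. The labels do not say whether the libraries came from separate mice, and p-values measure only the spread between them. 416b, a Cd34+ mouse myeloid line, had been transduced with lentivirus carrying PLZF-Flag and GFP (PLZF-Flag) or with the same vector lacking PLZF (Empty vector), sorted for GFP and sequenced in 1 library per condition. Values are normalised counts, that is reads per gene divided by a size factor of the library. The GMP and 416b tables had been normalised separately, so tests and ratios were made only within each table, and levels per gene length are set side by side across them without a test.

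In GMPs the targeted gene Zbtb16 had 828 and 705 normalised counts in WT (A first) against 269 and 369 in Zbtb16lu/lu (A first), a log2 difference of -1.28 ± 0.20 (SE, n = 2 per genotype; limma adjusted p = 0.299, edgeR 0.329 and DESeq2 4.4e-05). Reads on genes numbered 37562999 to 40170636 per GMP library. The GMP markers were high in all 4 libraries, with the neutrophil granule gene Mpo between 477326 and 552003 normalised counts, and the sort markers Kit and Cd34 lay between 6511 and 7338 and between 12396 and 17633. Of 10 GMP markers, 0 had their highest value in WT A, whereas 3 of the 4 sort markers did, beside 32% of all tested genes. Of 7 genes that mark T, B and NK cells, 5 had at most 13.4 normalised counts in each library, among them the T cell gene Cd3e with 0 to 2.98, while Cd79b lay between 1055 and 1270 and Nkg7 between 11056 and 11712. Of 8 mast cell and basophil genes 7 were tested, and 1 of them, Cpa3, had its highest value in WT A. Cpa3 lay between 2731 and 4620. Prss34 had 944 normalised counts in WT A and 1743 in WT B, and Tpsb2 had at most 1.99 in any library.

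The bases upstream of 6 members are shown first as examples, chosen after their values were seen: an alpha globin that was low in 416b cells, both adult beta globins, the first enzyme of erythroid heme synthesis, and the neighbouring chemokine genes Pf4 and Ppbp, which differed widely between GMP libraries. The sequences are the RefSeq promoters of GRCm38.p6, which has the same chromosome sequences as mm10, from 250 bases before the start and cut where the GENCODE M21 gene begins. Capitals mark AGATAA or TGATAA on either strand, the letters that GATA factors are known to prefer.
Hba-a1, chr11:32283422-32283510, strand +: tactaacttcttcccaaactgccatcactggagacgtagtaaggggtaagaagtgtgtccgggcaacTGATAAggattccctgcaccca
Hbb-bs, chr7:103828097-103828178, strand -: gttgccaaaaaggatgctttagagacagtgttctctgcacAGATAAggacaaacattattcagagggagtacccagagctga
Hbb-bt, chr7:103813997-103814173, strand -: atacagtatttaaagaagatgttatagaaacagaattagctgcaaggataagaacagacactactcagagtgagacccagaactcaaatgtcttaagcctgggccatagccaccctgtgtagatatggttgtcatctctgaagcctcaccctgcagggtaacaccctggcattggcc
Alas2, chrX:150547167-150547374, strand +: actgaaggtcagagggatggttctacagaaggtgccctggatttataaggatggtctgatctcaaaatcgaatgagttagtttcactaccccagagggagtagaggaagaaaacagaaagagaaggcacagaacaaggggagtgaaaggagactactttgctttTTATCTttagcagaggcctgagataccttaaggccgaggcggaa
Pf4, chr5:90772185-90772434, strand +: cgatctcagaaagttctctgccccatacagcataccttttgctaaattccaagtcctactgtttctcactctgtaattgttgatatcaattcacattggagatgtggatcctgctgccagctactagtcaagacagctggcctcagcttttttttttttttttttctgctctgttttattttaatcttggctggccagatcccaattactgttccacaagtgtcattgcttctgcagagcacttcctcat
Ppbp, chr5:90768268-90768517, strand +: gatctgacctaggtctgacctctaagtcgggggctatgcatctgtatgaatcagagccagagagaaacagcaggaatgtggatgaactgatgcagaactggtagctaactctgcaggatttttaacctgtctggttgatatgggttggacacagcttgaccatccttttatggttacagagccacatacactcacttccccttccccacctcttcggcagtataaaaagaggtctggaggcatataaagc

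Promoters were found for 27 of the 35 members, with 29 start sites. In the 250 bases before the start, these GATA letters occurred in 10 of 14 erythroid members, in 2 of 9 megakaryocyte members (Gp1ba and Gp5) and in 2 of 4 shared regulators (Gfi1b and Tal1), beside 18.8% of 27025 genes with a promoter in the table. In Hba-a1 they lay 183 bases before the start, in Hbb-bs 210 and in Alas2 86, whereas Hbb-bt, Pf4 and Ppbp had no match in this window. The letters CCACACCC, preferred by Klf1, were found on either strand in 1 member, Hbb-bs (3.7% of members and 3.68% of all genes), and the letters CAGGAAG, of the kind bound by Ets factors such as Fli1, in Gp1ba and Gata1 (7.41% and 12.1%). A match is a description of these letters and not evidence of binding. The coding sequences of Hba-a1 and Hba-a2 differ at 1 of 429 bases and those of Hbb-bs and Hbb-bt at 1 of 444, so the division of reads between the copies is uncertain.

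Among erythroid members in GMPs, the alpha and beta globins, the heme synthesis enzyme Alas2 and the membrane proteins of the red cell differed more between the WT libraries than between genotypes, as did 16 of the 18 erythroid members. WT A was the highest library for 15 of the 18, and WT B the lowest for 10. Hba-a1 (chromosome 11, 32283511 to 32284465 of mm10) had 197 normalised counts in WT A, 17.9 in WT B, 158 in Zbtb16lu/lu A and 102 in Zbtb16lu/lu B. The WT libraries differed 11.0-fold, and both Zbtb16lu/lu values lay within that gap. Its neighbouring copy Hba-a2 had 65.6, 15.9, 89.3 and 36.0 in the same order. Hbb-bs (chromosome 7, 103826534 to 103828096) had 429 and 47.7 in WT against 300.1 and 176 in Zbtb16lu/lu. Hbb-bt had 178, 24.9, 119 and 77.1, so all 4 adult globin genes were lowest in WT B.

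Slc4a1, the anion exchanger band 3, had 217 normalised counts in WT A, 17.9 in WT B, 118 in Zbtb16lu/lu A and 113 in Zbtb16lu/lu B. The Zbtb16lu/lu libraries were nearly equal while the WT libraries differed 12.1-fold, the widest WT gap among the 34 members with more than 3 reads in WT B. Alas2, the erythroid enzyme that starts heme synthesis, had 104, 24.9, 50.2 and 81.2, and was the only one of the globin and heme members with more counts in Zbtb16lu/lu B than in Zbtb16lu/lu A. The skeletal genes Ank1 (ankyrin) and Sptb (beta spectrin) had 137, 25.9, 82.3 and 72.0, and 446, 66.6, 165 and 149. The blood group carriers Ermap and Rhd had 167, 16.9, 96.3 and 45.2, and 100.3, 10.9, 70.3 and 37.0. These 10 genes, Hba-a1, Hba-a2, Hbb-bs, Hbb-bt, Alas2, Slc4a1, Ank1, Sptb, Ermap and Rhd, were the erythroid members with their minimum in WT B.

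In the other 8 erythroid members Zbtb16lu/lu B was the lowest library. The carbonic anhydrase Car1 had 592 and 118 normalised counts in WT against 555 and 97.7 in Zbtb16lu/lu, so both B libraries were low and both others high. The water channel Aqp1 showed the same order, at 764, 130.3, 449 and 117, as did the nuclear protein Hemgn at 290.3, 92.5, 150 and 61.7 and the blood group protein Kel at 127, 36.8, 62.2 and 31.9. Car2, a carbonic anhydrase also found outside red cells, varied less, at 1674, 850.2, 1157 and 704. The early regulators were low throughout: Klf1 had 75.2, 43.8, 60.2 and 20.6 and Epor had 29, 20, 30 and 6 reads. Tfrc, the transferrin receptor used by all dividing cells, stood apart from the others, with 11137 and 11944 in WT against 9198 and 8379 in Zbtb16lu/lu.

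**Figure D1:**
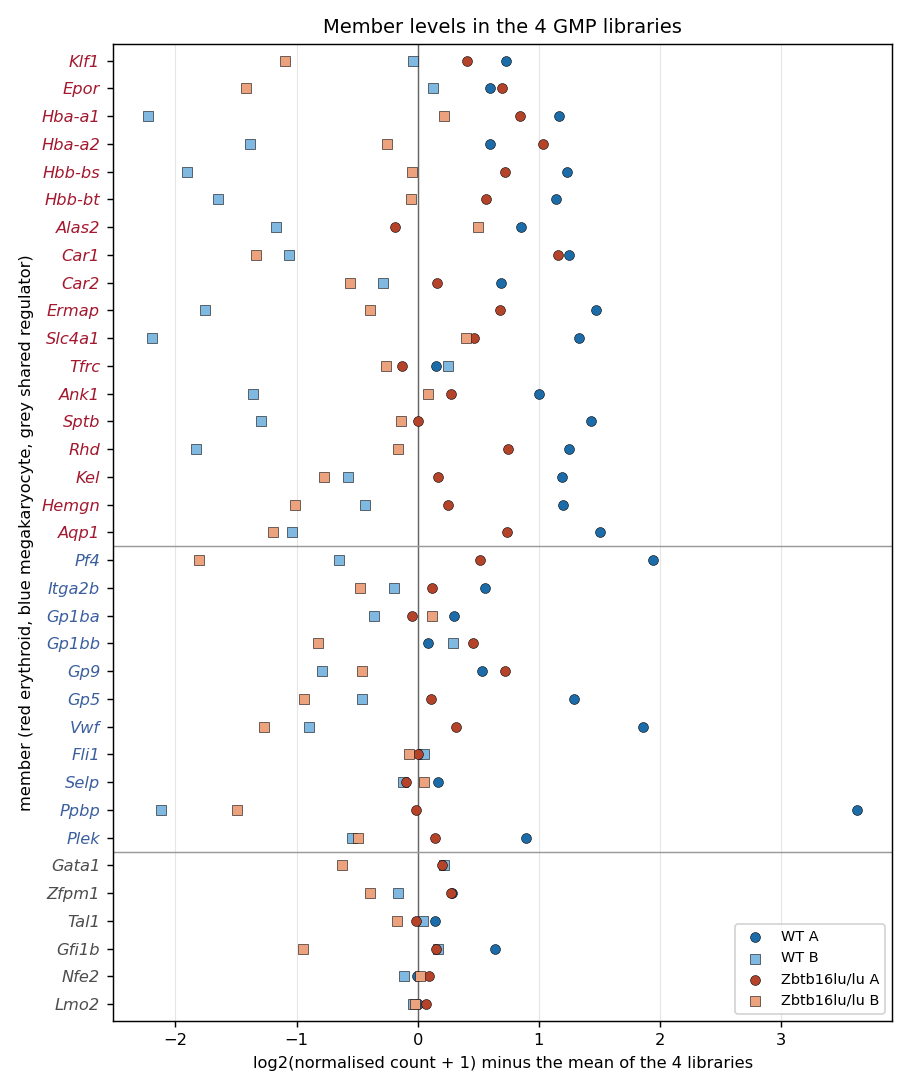
Each row is a member and each point a GMP library, placed at its log2(normalised count + 1) minus the mean of the 4 libraries. Circles (A libraries) lie to the right of squares (B libraries) for 25 of 35 members, and WT A is the highest library for 26.

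For 7 of the 11 megakaryocyte members both A libraries lay above both B libraries, and Gp1ba, Gp1bb, Selp and Fli1 did not show this order. Ppbp, a platelet granule chemokine, had 212 normalised counts in WT A, 2.98 in WT B, 16.1 in Zbtb16lu/lu A and 5.14 in Zbtb16lu/lu B. These came from 220, 3, 16 and 5 reads, and the ratio of the WT libraries was 71.1 (95% exact interval 24.0 to 348, counting error only). Ppbp passed the filter through WT A and Zbtb16lu/lu A. Its neighbour on chromosome 5, the platelet factor Pf4 (90772435 to 90773383), had 1306, 216, 486 and 96.6. Vwf, von Willebrand factor, had 1579.8 and 234 in WT against 542 and 180 in Zbtb16lu/lu. In all 3 genes WT A held the most reads and Zbtb16lu/lu A the next most.

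Gp5, a subunit of the von Willebrand factor receptor, had 163, 47.7, 71.3 and 33.9 normalised counts, and the other subunits varied less: Gp1ba had 93.6, 58.7, 73.3 and 82.2, Gp1bb had 55.0, 63.6, 71.3 and 28.8, and Gp9 had 55.9, 21.9, 64.2 and 27.8. The genes of this receptor thus had no common order of libraries. Itga2b, the alpha IIb integrin that begins to be expressed in early progenitors, had 2845 and 1686 in WT against 2104 and 1392 in Zbtb16lu/lu. Plek (pleckstrin), which is also expressed in myeloid cells, had 2895, 1074, 1727 and 1109. Selp (P-selectin) lay between 346 and 422 and Fli1 between 6511 and 7078, the steadiest of the megakaryocyte members at 1.09-fold between the highest and the lowest library.

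The shared regulators had a smaller median gap between libraries of a genotype than either lineage set. Gata1 had 213 and 214 normalised counts in WT, 212 in Zbtb16lu/lu A and 119 in Zbtb16lu/lu B, so 3 libraries were almost equal and 1 was low. Gfi1b, a repressor in both lineages, had 156, 112, 111 and 51.4, and Zfpm1 had 444, 326, 442 and 278, both lowest in the same library. Tal1 lay between 1204 and 1496, Nfe2 between 3500.2 and 4039 and Lmo2 between 9257 and 9982. Between the WT libraries the median log2 difference (A minus B) was 2.34 for erythroid members, 1.32 for megakaryocyte members and 0.10 for shared regulators, beside -0.01 for all 20531 tested genes. Between the Zbtb16lu/lu libraries (A minus B) the medians were 0.84, 1.05 and 0.41, beside 0.02.

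Counted over the list, WT A was the highest of the 4 libraries for 26 of 35 members (15 erythroid, 8 megakaryocyte and 3 shared regulators), beside 32% of all tested genes. Both B libraries lay below both other libraries for 25 members (16, 7 and 2), beside 15.3%. WT A exceeded WT B at least 2-fold after adding 1 for 20 members (14, 6 and 0), beside 6.97%. In bulk RNA, fewer cells of a type and less RNA per cell cannot be told apart. The members do not vary independently, so these counts describe 4 libraries and are not replicated measurements. Beside these shifts, the summed GMP markers were 752352 normalised counts in WT A, 770608 in WT B, 871949 in Zbtb16lu/lu A and 859565 in Zbtb16lu/lu B. Mpo alone gave 483375 of the sum in WT A. Over the 10 GMP markers the median log2 difference between the WT libraries (A minus B) was -0.11. The part of cell composition or of the date in the differences between libraries was not tested.

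The comparison of Zbtb16lu/lu with WT GMPs asks whether loss of PLZF alters these lineage genes. With limma on log2(normalised count + 1), 0 of 35 members and 0% of 20531 genes passed an adjusted p of 0.08, and 1 member, Tfrc, and 2028 genes (9.88%) had an unadjusted p under 0.05. EdgeR on the recovered reads called 0 members (0% of all genes), with 2 members and 9.90% of all genes at an unadjusted p under 0.05. DESeq2 on the same reads called 0 members (1.7% of the 12968 genes with an adjusted p) and gave no adjusted p for 17 of them, with 1 member and 8.30% of all genes at an unadjusted p under 0.05. The median log2 difference, Zbtb16lu/lu minus WT, was 0.08 over the erythroid, -0.36 over the megakaryocyte and -0.15 over the shared regulator members, beside -0.01 over all tested genes. With 1 library left out the erythroid median ran from -0.93 (without WT B) to 1.27 (without WT A) and the megakaryocyte median from -0.73 (without WT B) to 0.10 (without WT A). The shared regulator median ran from -0.36 (without Zbtb16lu/lu A) to 0.04 (without Zbtb16lu/lu B). The erythroid median was -0.25 in both edgeR and DESeq2. For 26 of 35 members (74.3%) the gap between the WT libraries exceeded the difference between genotypes, which held for 61.4% of all tested genes.

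The values behind these medians were uneven. The differences of the globins lay above 0 in this fit, with Hba-a1 at 1.06 ± 0.88 (SE) and Hbb-bs at 0.67 ± 0.81, as did Slc4a1 with 0.86 ± 0.90, and the adjusted p of these 3 genes was 0.687, 0.786 and 0.753. In edgeR, which fits the mean count rather than the mean of logs, Hbb-bs was at -0.0027 and Slc4a1 at -0.019, and the values of Hbb-bt, Ermap, Ank1 and Rhd also lay below 0. Pf4 was at -1.29 ± 0.86 (adjusted p = 0.621), Vwf at -0.96 ± 0.78 (0.683), Gp5 at -0.83 ± 0.59 (0.635) and Ppbp at -1.51 ± 1.53 (0.747). Of the 11 megakaryocyte members 9 had a negative difference, and of the 18 erythroid members 9, beside 10441 of all 20531 tested genes. At these SEs, which come from a fit with no term for the date, a 2-fold difference in these genes was not detectable.

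The genotypes did not overlap for 6 members. Tfrc (8379 to 9198 against 11137 to 11944; log2 difference -0.39 ± 0.11, adjusted p = 0.422), Gata1 (-0.42 ± 0.29), Gfi1b (-0.80 ± 0.40), Tal1 (-0.19 ± 0.13) and Fli1 (-0.07 ± 0.11) were lower in Zbtb16lu/lu, which 22.1% of all tested genes were. Nfe2 (0.12 ± 0.11) was higher, as were 21.7% of all tested genes. The share of members, 5 and 1 of 35, was below that of all genes in both directions. For Gata1 the separation in 1 pair of libraries was 213 against 212 normalised counts, and for Gfi1b 112 against 111. Without Zbtb16lu/lu B the difference of Gata1 was -0.012 and that of Gfi1b -0.25, and without Zbtb16lu/lu A they were -0.83 and -1.35. An exact permutation test of 2 against 2 libraries cannot give a two-sided p below 0.333. With 1 library left out, the number of members that did not overlap was 22 without WT A (78.2% of all tested genes), 30 without WT B (83.5%), 19 without Zbtb16lu/lu A (63.6%) and 11 without Zbtb16lu/lu B (62.4%). Limma then called 14 (13.4%), 22 (22.7%), 0 (0.00487%) and 0 (0.312%) members. In these fits the lone library is assumed to vary like the pair of the other genotype.

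Split by the date in the library names, the genotype difference changed its sign in 10 of the 18 erythroid members. Between the B libraries, Slc4a1 was 6.32-fold and Hba-a1 5.69-fold higher in Zbtb16lu/lu, Hbb-bs 3.68-fold, Rhd 3.38-fold, Alas2 3.27-fold, Hbb-bt 3.10-fold, Ank1 2.78-fold, Ermap 2.68-fold, Hba-a2 2.26-fold and Sptb 2.24-fold. Between the A libraries the log2 differences of the same genes ran from -1.43 (Sptb) to 0.44 (Hba-a2), and Hba-a2 was the only one above 0. The median over the 18 erythroid members was 1.14 for the B libraries and -0.55 for the A libraries. The other 8 erythroid members were lower in Zbtb16lu/lu B than in WT B, from -1.54 for Epor, -1.05 for Klf1 and -0.58 for Hemgn to -0.15 for Aqp1. The sign between the B libraries follows from which library was lowest, WT B for the 10 genes listed first and Zbtb16lu/lu B for these 8. For megakaryocyte members the medians were -0.12 and -0.44, with Pf4 at -1.15 and -1.42, and for shared regulators -0.22 and -0.01. The sign differed between the date sets for 15 of 35 members (42.9%), beside 42.5% of all tested genes. Each value here compares 1 library with 1 library and has no test.

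**Figure D2:**
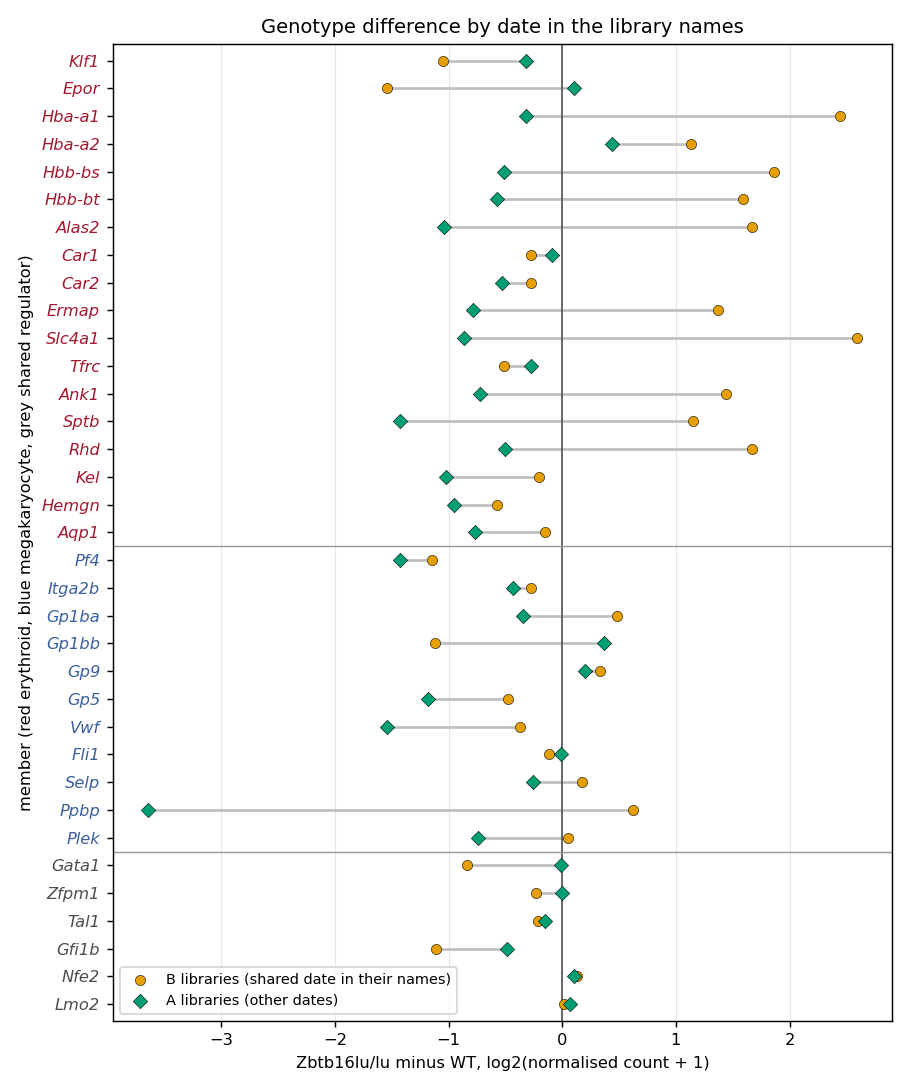
Each row is a member, with the Zbtb16lu/lu minus WT difference in log2(normalised count + 1) between the B libraries (circles) and between the A libraries (diamonds). For 10 erythroid members the circle lies to the right of 0, up to 2.59 for Slc4a1, and the diamond lies to the left for all of these but Hba-a2, while Pf4, Gp5 and Vwf lie to the left in both.

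Other genes of the same pathways, which are not members, included some that followed the library and some that did not. Of 27 further erythroid genes tested, 12 had both B libraries below both others, as did 12 of 19 further megakaryocyte genes and 1 of 8 further regulators, beside 15.3% of all genes. The median WT gap in log2 (A minus B) was 0.04 for the further erythroid genes and 2.16 for the further megakaryocyte genes. It was 3.28 for Treml1 and 3.57 for Thbs1, which are platelet granule genes. The 7 enzymes of heme synthesis in the list, which every cell uses, differed between the highest and the lowest library by 1.11-fold (Fech, 1569 to 1746 normalised counts) to 1.58-fold (Cpox, 797 to 1263). Gata2, which precedes Gata1 in progenitors, lay between 520.2 and 701. By genotype, limma called 0 of these 54 genes, edgeR 0 and DESeq2 0, with 2, 4 and 5 genes at an unadjusted p under 0.05, which 9.88%, 9.90% and 8.30% of all genes had. Lat, an adaptor of platelet and T cell signalling, had 174 and 131 in WT against 83.3 and 26.7 in Zbtb16lu/lu (log2 difference -1.65 ± 0.49, adjusted p = 0.422), and Icam4, a red cell adhesion protein, had 44.4 and 63.6 against 96.3 and 74.0 (0.66 ± 0.35, 0.562).

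Levels of different genes can be compared only per length, here as TPM, the counts per exon length scaled to the same total in every library. In GMPs the mean over 4 libraries was 151 TPM for Lmo2, 67.3 for Fli1, 56.6 for Tfrc and 43.4 for Nfe2. These 4 were above every other member in each library except WT A, where Pf4 reached 65.3 TPM. Below them lay Pf4 with a mean of 25.5 TPM, Car2 with 15.6, Plek with 13.1, Itga2b with 12.7, Tal1 with 10.7 and Hbb-bs with 10.6, whose ranges between libraries overlap. At the lower end were Epor with 0.363 TPM and Ank1 with 0.202. In 416b cells the order was different: the mean of both libraries was 2646 TPM for Car2, 2326 for Hbb-bt, 696 for Pf4, 574 for Selp and 408 for Lmo2. Gfi1b was at 282 TPM in 416b cells against 2.04 in GMPs, Gp9 at 246 against 1.64 and Zfpm1 at 381 against 3.64. Gata1 was at 1.11 TPM in 416b cells and at 2.67 TPM in GMPs. Library kits and read layouts differed between GMPs and 416b cells, so these levels are set side by side without a test.

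**Figure D3:**
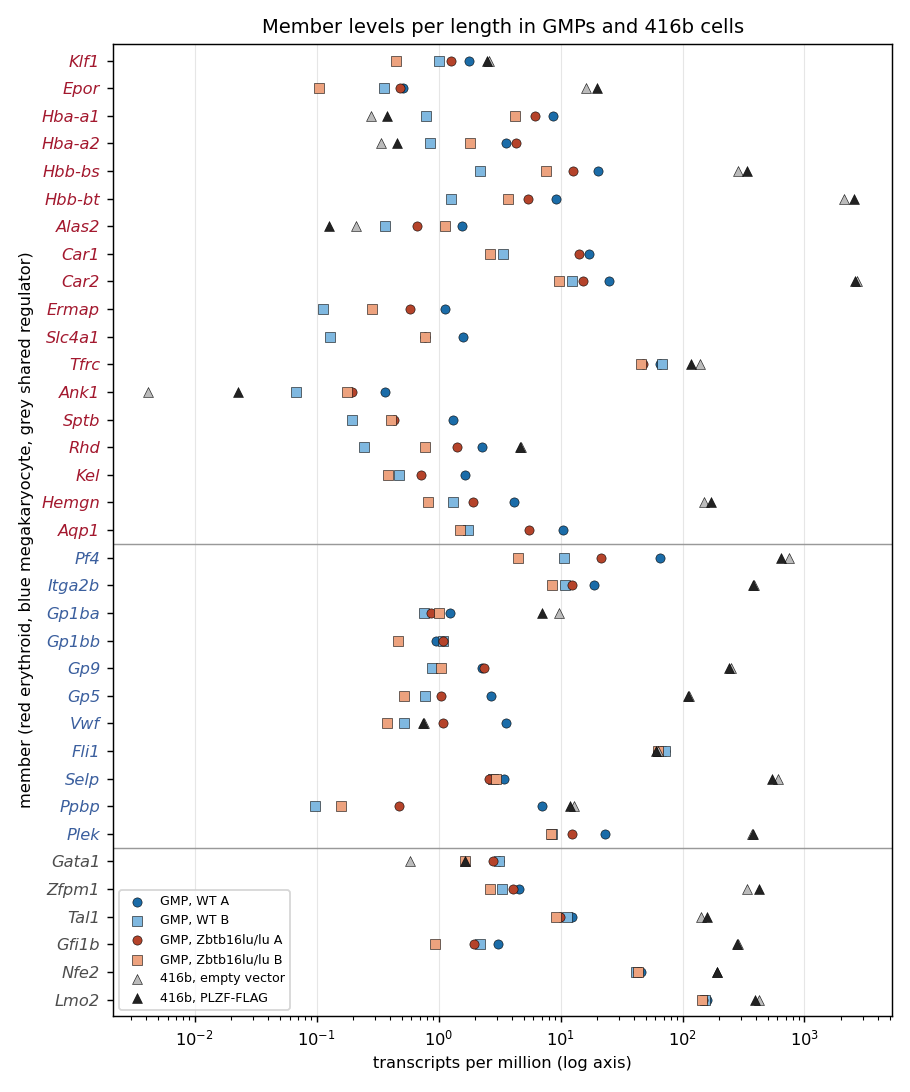
Each row is a member, with its level per exon length (TPM) on a log axis in the 4 GMP libraries (circles and squares) and the 2 libraries of 416b cells (triangles). The triangles lie far to the right for Hbb-bt, Car2, Selp, Zfpm1 and Gfi1b, to the left for Hba-a1, Hba-a2, Alas2 and Ank1, and are missing for the 7 members not listed in 416b cells.

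416b cells carried part of both lineage programmes. The beta globins were abundant, with Hbb-bt at 15941 normalised counts in Empty vector and 19260 in PLZF-Flag, and Hbb-bs at 2338 and 2811. The alpha globins Hba-a1 and Hba-a2 had 4 reads each in Empty vector and 2 each in PLZF-Flag, the shallower library. In GMPs the mean levels were 4.99 TPM for Hba-a1, 2.62 for Hba-a2, 10.6 for Hbb-bs and 4.88 for Hbb-bt. In 416b cells Alas2 had 9 and 2 reads and Ank1 1 and 2, and Car1, Kel, Aqp1, Slc4a1, Sptb, Ermap and Gp1bb were not listed. The table lists only genes with a read in both libraries, so these 7 have no value. Platelet genes were present, with Itga2b at 22446 and 22145, Selp at 28864 and 25683, Pf4 at 5769 and 5033, Gp9 at 2383 and 2272 and Gp5 at 2691 and 2654. Of the 10 granulocyte-monocyte markers, Mpo had 12.1 normalised counts in Empty vector and 3.30 in PLZF-Flag and Elane and Gfi1 were not listed, whereas Cebpa had 2673 and 2313 normalised counts, Ctsg 2318 and 1676, and Prtn3 469.6 and 435. The stem and progenitor marker Cd34 had 11059 and 8823.

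The second comparison asks whether added PLZF changes these genes in 416b cells. Zbtb16 had 382 normalised counts in Empty vector and 2541 in PLZF-Flag. Reads on genes numbered 54529665 in Empty vector and 19995846 in PLZF-Flag, and with 1 library per condition there is no test. Ratios are log2 of PLZF-Flag over Empty vector after adding 1, with 95% exact binomial intervals that cover counting error only. Of the 24 members with a mean of at least 10 normalised counts, 1 was at least 1.5-fold higher in PLZF-Flag (1.69% of 11836 genes) and 0 were at least 1.5-fold lower (3.11%). The member was Gata1, with 15.1 normalised counts (25 reads) in Empty vector and 43.0 (26 reads) in PLZF-Flag, a log2 ratio of 1.45 (0.66 to 2.36). It remained a low gene in both libraries.

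Of the other shared regulators, Zfpm1 went from 12823 to 15898 normalised counts (log2 ratio 0.31, interval 0.28 to 0.34), Tal1 from 6727 to 7518 (0.16, 0.11 to 0.21) and Lmo2 from 9766 to 9241 (-0.08, -0.12 to -0.04), while the intervals of Gfi1b (-0.02) and Nfe2 (0.02) included 0. Among erythroid members Epor went from 347 to 426 (0.29, 0.08 to 0.51), Hbb-bs and Hbb-bt each had a ratio of 0.27, Hemgn had 0.20 (0.14 to 0.27), Tfrc had -0.23 (-0.27 to -0.18) and Car2 -0.05. Klf1, with 70 and 25 reads, and Rhd, with 135 and 48, had a ratio of -0.04 each and intervals from -0.76 to 0.64 and from -0.55 to 0.44.

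In the megakaryocyte set 9 of 10 ratios were below 0, all small. Gp1ba went from 285 to 207 normalised counts (log2 ratio -0.46, interval -0.76 to -0.18), Pf4 had -0.20 (-0.26 to -0.14) and Selp -0.17 (-0.19 to -0.14). The intervals of Itga2b, Gp9, Gp5, Vwf, Fli1 and Ppbp included 0, and Plek was at 0.06 (0.02 to 0.09). Median log2 ratios were 0.08 for erythroid, -0.05 for megakaryocyte and 0.09 for shared regulator members, beside -0.00014 for all genes with a mean of at least 10. Of 50 further lineage genes at that level, 4 were at least 1.5-fold higher (1.69% of all genes) and 0 lower (3.11%). The intervals of 3 of the 4, Add2, Hbb-y and Mrvi1, included 0. Those past 2-fold were Rhag, a membrane partner of Rhd, with 38.1 and 92.5 normalised counts (1.26, 0.73 to 1.82), and Mrvi1, with 18 and 14 reads (1.02, -0.03 to 2.18).

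**Figure D4:**
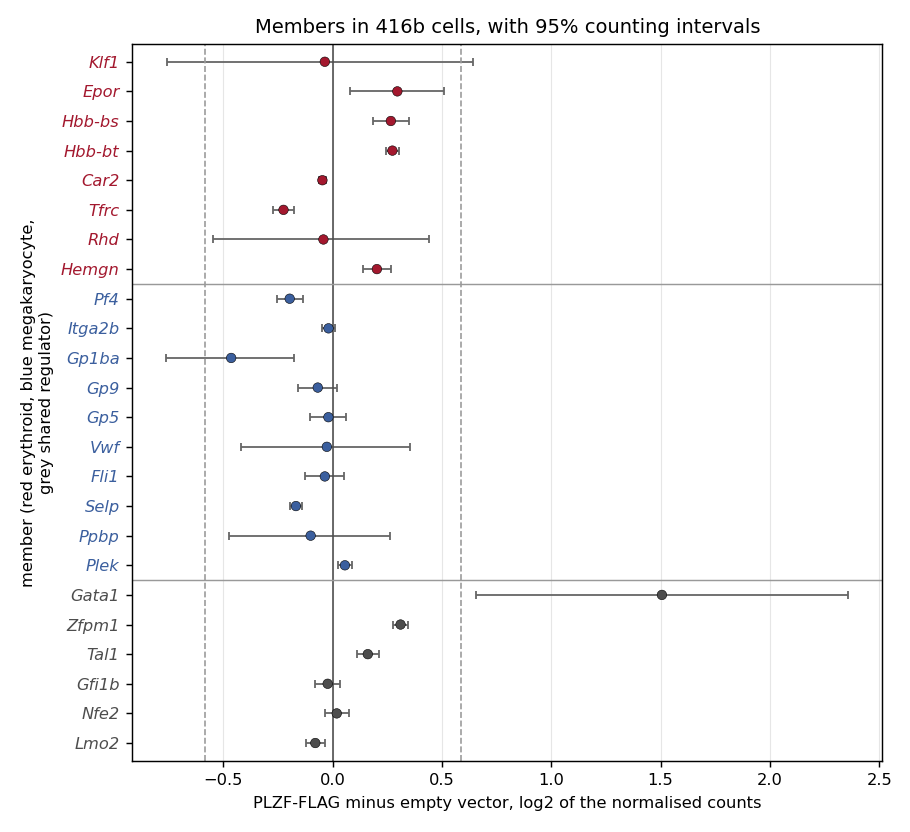
Each row is a member with a mean of at least 10 normalised counts in 416b cells, placed at log2 of PLZF-Flag over Empty vector with nothing added to the counts, and with its 95% counting interval. Dashed lines mark 1.5-fold, and Gata1 is the only point beyond them.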

How the data were processed

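RNA was sequenced from WT and Zbtb16lu/lu GMPs and from 416b cells. The authors aligned reads to mm10 with Subread, counted them per gene with featureCounts 1.5.0 and divided them by DESeq2 size factors, so the deposited signal values are normalised counts. Columns of log2 values and of the authors' own fold changes and p-values were not used. The GMP kit keeps strand, but whether counting used it is not given in the sources used here.

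Every GMP value and 84.8% and 85.5% of the Empty vector and PLZF-Flag values were whole multiples of the value of 1 read (tolerance 0.1 read), from which reads were recovered. GMP genes with at least 10 normalised counts in at least 2 libraries (20531 genes) were tested with limma 3.58.1 (intensity trend) on log2 values after adding 1, with Benjamini-Hochberg adjustment over all of them and a threshold of 0.08. edgeR 4.0.16 (quasi-likelihood) and DESeq2 1.42.0 were run on the recovered reads in R 4.3.3. For 416b cells, ratios and exact binomial (Clopper-Pearson) intervals were computed in Python 3.11.15 with scipy 1.17.1, and a change was taken as 1.5-fold. Gene lengths came from GENCODE M21. The tests were checked on simulated data. Alternatives covered filters, added counts, scaling, GC and length offsets, each library left out, and each date alone. Leaving out libraries for the count of members that did not overlap was added after seeing the data.

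The members and the further lists were chosen with earlier results of these data known. All 35 members are named, and further genes only where the genotypes did not overlap with a log2 difference of at least 0.5, where the 416b ratio passed 2-fold, or as examples chosen after their values were seen. Chromatin samples of the series were not used here.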

Additional observations from a re-analysis of the deposited data

How the results depend on the processing

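No paired analysis was possible because the libraries have no replicate numbers and only 1 date is shared by both genotypes. No member was called by limma under another filter (none, or a mean of at least 100), added counts of 0.1 or 10, equal library totals, no intensity trend, GC and length offsets or a threshold of 0.05, and edgeR and DESeq2 called 0 members. DESeq2 called 220 genes in all, against 0. With 1 library left out, 1 to 4662 genes and 0 to 22 members were called and 11 to 30 members did not overlap, and the call rests on the spread of 1 pair of libraries. With GC and length offsets the median of the shared regulators moved to -0.43 and that of the megakaryocyte members from -0.36 to -0.61, and the erythroid median was -0.18 with a mean of at least 100 and -0.0065 with 10 added, against 0.075. The cause was not tested. In 416b cells, 2 members were at least 1.5-fold higher with no filter (Ank1, with 3 reads in all, was added) and 0 with a mean of at least 100, which left Gata1 out. The 416b erythroid median was 0.23 under either filter, against 0.083, and that of the shared regulators 0.018 with a mean of at least 100, against 0.089.

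Differences that changed sign in edgeR and DESeq2 were those of Hbb-bt (-0.048 and -0.046), Ermap (-0.38 and -0.37), Slc4a1 (-0.019 and -0.017), Ank1 (-0.077 and -0.074) and Rhd (-0.053 and -0.050), with Hbb-bs at -0.0027 in edgeR. With GC and length offsets Gp1ba was at -0.0100, Fli1 at 0.0027 and Lmo2 at -0.089. With 1 library left out, 29 members changed sign in at least 1 fit. Their log2 differences ran as follows over the 4 fits: Klf1 -1.44 to 0.068, Epor -1.78 to 0.34, Hba-a1 -0.63 to 2.76, Hba-a2 -0.20 to 1.77, Hbb-bs -0.90 to 2.24, Hbb-bt -0.89 to 1.91, Alas2 -0.70 to 1.33, Car1 -1.43 to 1.06, Car2 -0.89 to 0.086, Ermap -1.32 to 1.91, Slc4a1 -0.90 to 2.63, Ank1 -0.82 to 1.54, Sptb -1.50 to 1.22, Rhd -0.96 to 2.12, Kel -1.49 to 0.27, Hemgn -1.58 to 0.055, Aqp1 -1.73 to 0.81, Pf4 -2.58 to 0.0081, Itga2b -0.73 to 0.021, Gp1ba -0.27 to 0.40, Gp1bb -1.01 to 0.26, Gp9 -0.39 to 0.92, Gp5 -1.71 to 0.044, Vwf -2.33 to 0.42, Selp -0.18 to 0.10, Ppbp -4.38 to 1.36, Plek -1.06 to 0.37, Zfpm1 -0.45 to 0.21, Lmo2 -0.0045 to 0.089. The members that kept their sign over these 4 fits were Tfrc -0.46 to -0.33, Fli1 -0.10 to -0.031, Gata1 -0.83 to -0.012, Tal1 -0.26 to -0.11, Gfi1b -1.35 to -0.25 and Nfe2 0.063 to 0.17. Depth limits the GMP values of members such as Epor, Ppbp, Rhd and Gp9, which rest on fewer than 25 reads in some libraries, and the 416b values of Gata1 and Klf1.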
